A study of Mus musculus with 6 samples.

Results

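The circadian clock genes were described in hippocampal RNA-Seq of *Phf21b*-depleted mice. The members were chosen by symbol, as *Per1*, *Per2*, *Per3*, *Cry1*, *Cry2*, *Nr1d1*, *Nr1d2*, *Dbp*, *Arntl*, and *Clock*, and all 10 were found among the 14477 genes of the deposited table. Hippocampal total RNA was read as 1 library per mouse from 3 Phf21bΔ4/Δ4 mice, labelled replicates 2, 3, and 6, and from 3 Phf21b+/+ mice, labelled replicates 5, 7, and 8. No treatment is named for either genotype. In Phf21bΔ4/Δ4 mice a CRISPR deletion in exon 4 of *Phf21b*, which encodes a PHD finger protein that reads histone marks, lowers its expression in the whole body, so these mice are depleted of the gene product and not null for it. Both genotypes were young adult littermates of either sex on a C57BL/6J background, kept on a light-dark cycle. The age and sex of each of the 6 mice and the clock time at which each hippocampus was collected are not given in the sources used here. Values are CPM, a gene's reads scaled by the authors to the effective size of each library, and are given in the order of replicates 2, 3, and 6 for Phf21bΔ4/Δ4 and replicates 5, 7, and 8 for Phf21b+/+.

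The mammalian clock is a loop of transcription and repression that turns once a day in most cells. BMAL1 (from *Arntl*) and CLOCK pair on E-box sequences and switch on the *Per* and *Cry* genes, whose proteins return to the nucleus and block that pair, and the *Nr1d* genes, whose REV-ERB proteins repress *Arntl*. *Dbp* is a direct output that activates other genes through D-box sequences. In the rodent brain the loop is set by the suprachiasmatic nucleus, and in hippocampal tissue the *Per* and *Nr1d* transcripts and *Dbp* peak at another time of day than *Arntl*. *Per1* can also be induced quickly by CREB and by glucocorticoids.

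None of the 10 clock genes passed the study's thresholds (FDR under 0.1, more than 1.3-fold) in limma's moderated test of the deposited log2 CPM values with Benjamini-Hochberg adjustment. Over all 14477 genes 176 passed (1.22%), with 0.553% higher and 0.663% lower in Phf21bΔ4/Δ4 mice. Of the 10, 6 had an unadjusted p under 0.05 (*Per1*, *Per2*, *Per3*, *Cry1*, *Cry2*, and *Nr1d2*), as did 23.6% of all genes. In 6 of the 10 (*Per1*, *Per2*, *Cry1*, *Cry2*, *Nr1d2*, and *Dbp*) the genotypes did not overlap, as was so in 31.0% of all genes. Of these 6, *Per1*, *Per2*, and *Cry2* lay higher in Phf21bΔ4/Δ4 mice (15% of all genes) and *Cry1*, *Nr1d2*, and *Dbp* lay lower (16.0%). The median log2 fold change was 0.06 over the 10 clock genes and -0.02 over all genes. The calls turned on Phf21bΔ4/Δ4 replicate 6. Without it, *Per1*, *Per2*, and *Cry1* were past both thresholds, as were 2830 genes in all. Without any of the other 5 mice, no clock gene was, and between 9 and 45 genes were in all.

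**Figure D1:**
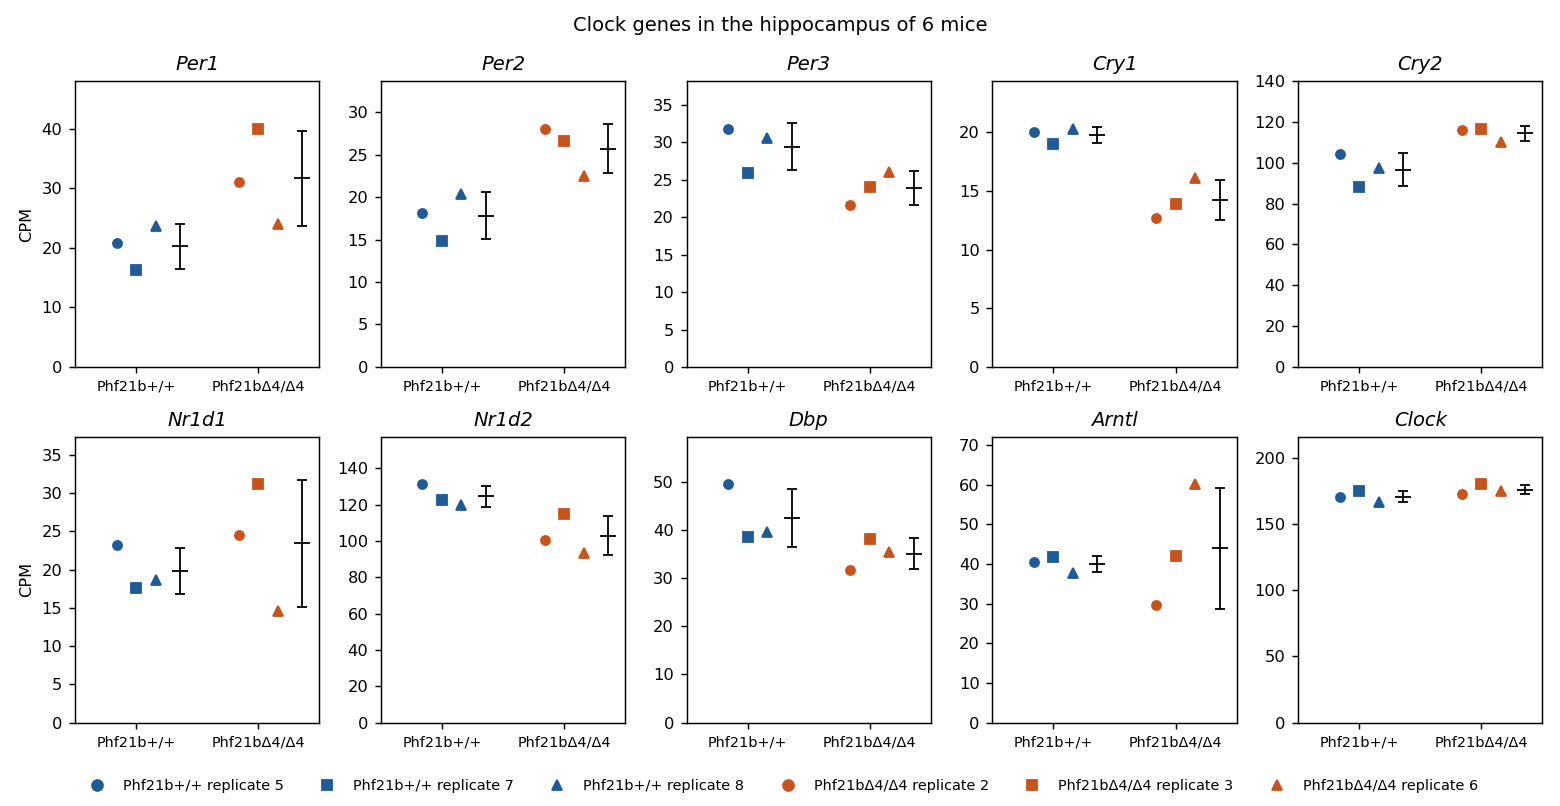
CPM of the 10 clock genes in each of the 6 mice, with a linear axis from 0 in every panel. Points are mice, and the bar beside them is the mean ± SD of 3 mice. *Per1* of Phf21bΔ4/Δ4 replicate 6 (23.97 CPM) lay just above *Per1* of Phf21b+/+ replicate 8 (23.7 CPM), while *Arntl* spread from 29.8 to 60.2 CPM within the Phf21bΔ4/Δ4 mice.

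The 6 libraries had between 20495605 and 24881257 reads on the listed genes, as worked out from the log2 values, and the clock genes had between 292 and 4137 reads in a library. *Phf21b* itself had 2.15, 3.57, and 3.87 CPM in Phf21bΔ4/Δ4 mice and 6.50, 5.23, and 6.47 CPM in Phf21b+/+ mice, which did not overlap (log2 fold change -0.96, FDR 0.14 by limma). Marker genes of brain regions also differed between the libraries. Markers of the medial habenula were lower in Phf21bΔ4/Δ4 mice for 12 of 13 genes by the same thresholds, with a summed level of 75.1 to 114 CPM against 380.1 to 569.6 CPM, and *Pou4f1*, *Irx2*, *Chat*, and *Slc18a3* had at most 3 reads in each Phf21bΔ4/Δ4 library. Thalamic markers were lower for 2 of the 9 listed (163 to 208 CPM against 462 to 677 CPM). Of markers of hippocampal fields, 3 of 7 for CA1 were higher (996 to 1100.0 CPM against 409 to 455 CPM), 1 of 8 for the dentate gyrus was lower (298 to 771 CPM against 839.6 to 964 CPM), and none of 6 for CA3 was past the thresholds. All these markers of hippocampal fields were listed. Choroid plexus markers, of which 1 of 8 was lower, summed to 15715 CPM in Phf21b+/+ replicate 7, to 981 CPM in Phf21b+/+ replicate 8, and to between 23.96 and 83.2 CPM in the other 4 mice. Of 8 markers of the suprachiasmatic nucleus, *Avp*, *Prok2*, *Nms*, *Lhx1*, and *Six6* were not listed, and the remaining 3 (*Vip*, *Rgs16*, and *Vipr2*) were not past the thresholds. The medial habenula, the thalamus, and the choroid plexus are not parts of the hippocampus. In such bulk RNA, a difference in the tissue taken, a change in the share of a cell type, and a change in RNA per cell cannot be told apart. The part of these tissue differences in the values of the clock genes was not tested.

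*Per1* and *Per2*, the period genes whose proteins carry the repression, gave the most positive differences of the 10. *Per1* (ENSMUSG00000020893.17, GRCm38 chromosome 11, 69095217 to 69109960, plus strand) had 31.0, 40.01, and 23.97 CPM in Phf21bΔ4/Δ4 mice and 20.8, 16.2, and 23.7 CPM in Phf21b+/+ mice. The genotypes were separated by a gap that was small beside the spread within each, 31.7 ± 8.04 CPM against 20.3 ± 3.77 CPM (SD, n = 3 each). *Per1* had a log2 fold change of 0.63 ± 0.22 (SE), or 1.55-fold, with a 95% interval of 0.11 to 1.15 and an FDR of 0.17 (limma).

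*Per2* (ENSMUSG00000055866.9, chromosome 1, 91415982 to 91459324, minus strand) had 28.0, 26.6, and 22.5 CPM in Phf21bΔ4/Δ4 mice and 18.2, 14.9, and 20.4 CPM in Phf21b+/+ mice. Every Phf21bΔ4/Δ4 mouse lay above every Phf21b+/+ mouse, and the means were 25.7 ± 2.88 CPM and 17.8 ± 2.79 CPM (SD, n = 3 each). This came to a log2 fold change of 0.54 ± 0.15 (SE), with a 95% interval of 0.18 to 0.89 and an FDR of 0.14 (limma). Without Phf21bΔ4/Δ4 replicate 6, the lowest of its genotype for both genes, the log2 fold changes were 0.82 for *Per1* (FDR 0.050) and 0.63 for *Per2* (FDR 0.051).

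*Per3* (ENSMUSG00000028957.12, chromosome 4, 151003652 to 151044665, minus strand), whose loss leaves the rhythm largely intact, pointed the other way. It had 21.6, 24.1, and 26.1 CPM in Phf21bΔ4/Δ4 mice and 31.8, 25.9, and 30.7 CPM in Phf21b+/+ mice. The genotypes overlapped through Phf21bΔ4/Δ4 replicate 6 and Phf21b+/+ replicate 7 alone. The log2 fold change of -0.30 ± 0.12 (SE) had a 95% interval of -0.58 to -0.02 and an FDR of 0.20 (limma). The whole of *Per3* lies within the annotated span of *Camta1* on the same strand without sharing exon bases, and *Camta1* overlapped between genotypes (271 to 319 CPM against 228 to 296 CPM).

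The cryptochromes, the partners of the PER proteins in repression, also lay on opposite sides. *Cry1* (ENSMUSG00000020038.10, chromosome 10, 85131700 to 85185064, minus strand) had 12.7, 13.9, and 16.1 CPM in Phf21bΔ4/Δ4 mice and 20.1, 19.0, and 20.3 CPM in Phf21b+/+ mice. The Phf21b+/+ mice were close together (19.8 ± 0.705 CPM) and all 3 Phf21bΔ4/Δ4 mice lay below them (14.2 ± 1.70 CPM; SD, n = 3 each). *Cry1* had the most negative log2 fold change of the 10 genes, -0.48 ± 0.11 (SE, 95% interval -0.75 to -0.21) or 1.40-fold lower, and the lowest FDR, 0.13 by limma. Without Phf21bΔ4/Δ4 replicate 6 it was -0.57 (FDR 0.028).

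*Cry2* (ENSMUSG00000068742.11, chromosome 2, 92403646 to 92434043, minus strand) had 116, 117, and 110.4 CPM in Phf21bΔ4/Δ4 mice and 104, 88.3, and 97.3 CPM in Phf21b+/+ mice. The genotypes did not overlap, and the Phf21bΔ4/Δ4 mice differed little among themselves (114 ± 3.48 CPM against 96.7 ± 8.10 CPM; SD, n = 3 each). *Cry2* differed by 0.25 ± 0.08 on the log2 scale (SE, 95% interval 0.05 to 0.44, FDR 0.17 by limma), or 1.19-fold, which is under the study's fold threshold. *Cry2* shares 295 exon bases with *D930015M05Rik* on the opposite strand, a gene that was not listed, and since the strand setting of the counting is not given in the sources used here, reads of the shared bases could not be told apart.

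**Figure D2:**
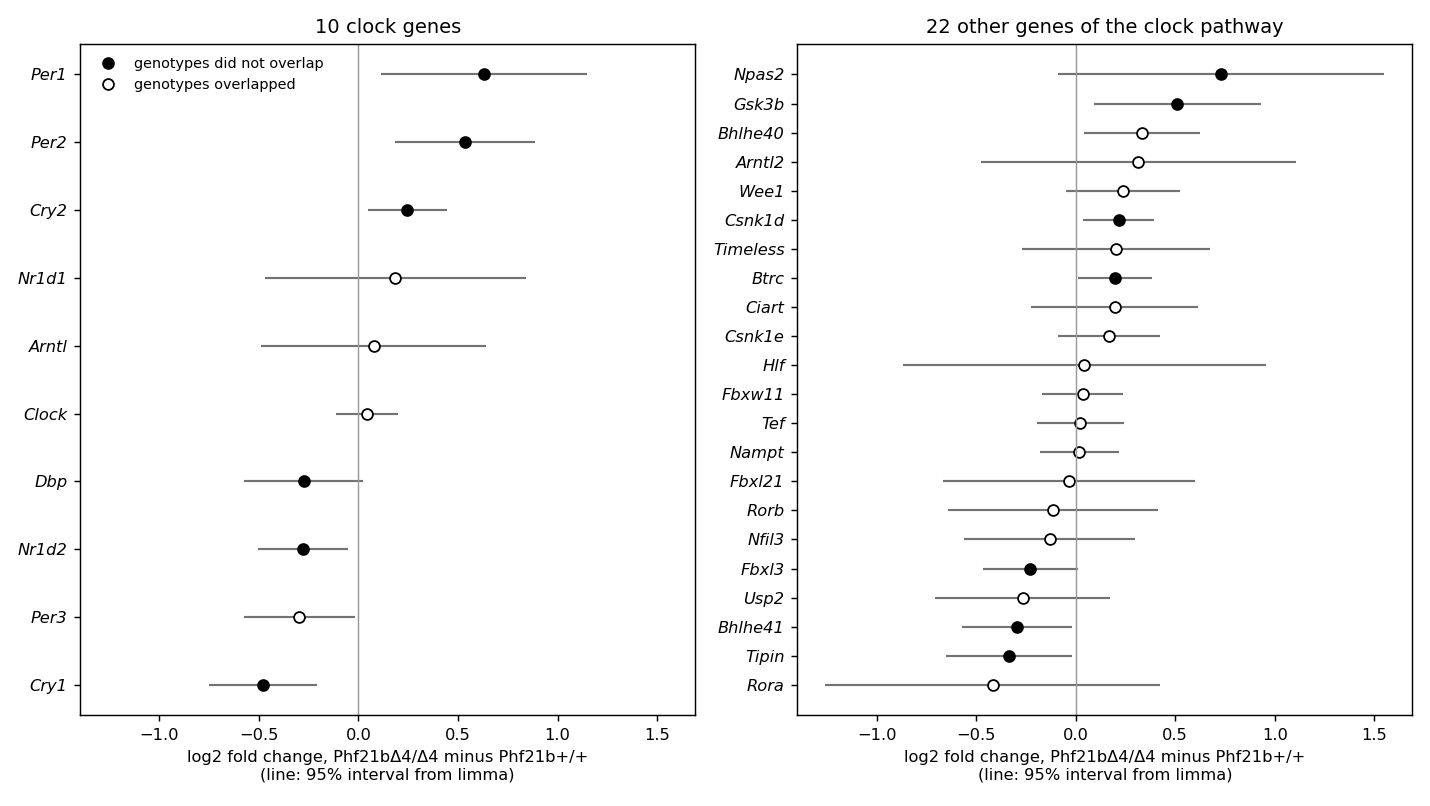
Log2 fold changes (Phf21bΔ4/Δ4 minus Phf21b+/+) of the 10 clock genes and of 22 other genes of the pathway, with 95% intervals from limma. Filled points mark genes whose genotypes did not overlap. *Per1* and *Per2* lie farthest to the right and *Cry1* farthest to the left of the 10, and none of the 32 genes shown was past the FDR threshold.

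The REV-ERB genes encode nuclear receptors that repress *Arntl*. *Nr1d2* (ENSMUSG00000021775.11, chromosome 14, 18204054 to 18239127, minus strand) had 100.5, 115, and 93.4 CPM in Phf21bΔ4/Δ4 mice and 131, 123, and 119.8 CPM in Phf21b+/+ mice, without overlap. The difference of *Nr1d2* was -0.28 ± 0.09 on the log2 scale (SE, 95% interval -0.51 to -0.05, FDR 0.17 by limma), or 1.21-fold lower. *Nr1d1* (ENSMUSG00000020889.11, chromosome 11, 98767932 to 98775333, minus strand) had 24.5, 31.2, and 14.6 CPM in Phf21bΔ4/Δ4 mice and 23.2, 17.6, and 18.7 CPM in Phf21b+/+ mice. The Phf21b+/+ range of *Nr1d1* lay wholly within the Phf21bΔ4/Δ4 range. Its log2 fold change of 0.19 had a 95% interval from -0.47 to 0.84 (FDR 0.69, limma), which holds both a decrease and an increase larger than 1.3-fold, and without Phf21bΔ4/Δ4 replicate 3 it was -0.054. *Nr1d1* and *Thra*, which lie on opposite strands, share 263 exon bases, and *Thra* stood at 684 to 862 CPM against 528 to 667 CPM. As for *Cry2*, reads of the shared bases could not be told apart.

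*Dbp* (ENSMUSG00000059824.12, chromosome 7, 45705088 to 45710203, plus strand), a PAR bZIP factor and one of the strongest rhythmic outputs of the loop, had 31.6, 38.0, and 35.3 CPM in Phf21bΔ4/Δ4 mice. In Phf21b+/+ mice it had 49.4, 38.5, and 39.6 CPM. The genotypes did not overlap, but the gap between 38.0 and 38.5 CPM was smaller than the SD within either genotype (3.20 and 6.04 CPM). On the log2 scale *Dbp* differed by -0.28 ± 0.12 (SE, 95% interval -0.57 to 0.02, FDR 0.23 by limma). *Dbp* shares 539 exon bases with *Sphk2* on the opposite strand, and *Sphk2* was higher in all 3 Phf21bΔ4/Δ4 mice (26.2 to 27.9 CPM against 23.1 to 24.7 CPM), the side opposite to *Dbp*. The same limit on reads of shared bases holds here.

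The activator pair differed from each other in spread. *Clock* (ENSMUSG00000029238.11, chromosome 5, 76209868 to 76304792, minus strand) had 173, 179.9, and 175 CPM in Phf21bΔ4/Δ4 mice and 171, 175, and 167 CPM in Phf21b+/+ mice. The SD of its log2 CPM was 0.03 in both genotypes, the smallest of the 10 genes in each, and its log2 fold change was 0.04 with a 95% interval of -0.11 to 0.20 (FDR 0.69, limma), within 1.3-fold on either side. *Arntl* (ENSMUSG00000055116.8, chromosome 7, 113207465 to 113314126, plus strand) had 40.4, 41.9, and 37.8 CPM in Phf21b+/+ mice but 29.8, 41.9, and 60.2 CPM in Phf21bΔ4/Δ4 mice. Its log2 SD was 0.51 in Phf21bΔ4/Δ4 and 0.07 in Phf21b+/+ mice. The log2 fold change of *Arntl*, 0.08 (95% interval -0.49 to 0.64, FDR 0.86, limma), turned to -0.18 without Phf21bΔ4/Δ4 replicate 6. *Arntl* shares 33 exon bases with *Gm45355* on the opposite strand, which was not listed. A larger spread among the Phf21bΔ4/Δ4 mice was found for 5 of the 10 clock genes and for 62.7% of all genes.

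**Figure D3:**
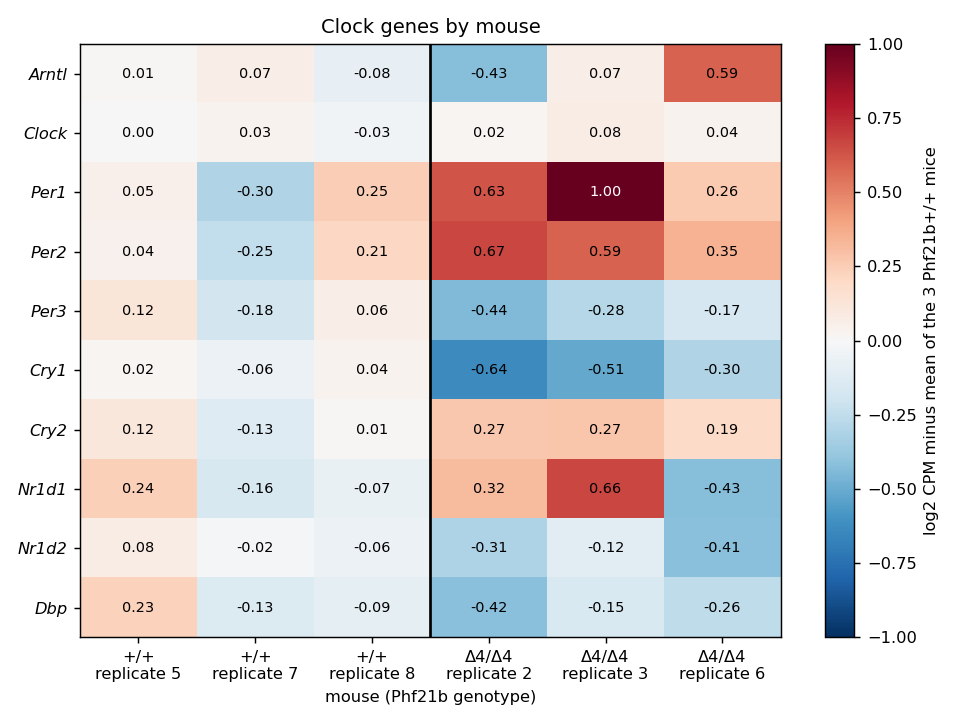
Log2 CPM of each clock gene in each mouse, minus the mean of the 3 Phf21b+/+ mice. Colour and printed value give the difference. *Arntl* goes from -0.43 in Phf21bΔ4/Δ4 replicate 2 to 0.59 in replicate 6, while *Nr1d1* is 0.32 and 0.66 in replicates 2 and 3 and -0.43 in replicate 6.

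Seen by mouse, Phf21bΔ4/Δ4 replicate 6 had the highest *Arntl*. Within its genotype it had the lowest *Per1*, *Per2*, *Cry2*, *Nr1d1*, and *Nr1d2*, but also the highest *Per3* and *Cry1*. Phf21bΔ4/Δ4 replicate 2 had the lowest *Per3*, *Cry1*, *Dbp*, *Arntl*, and *Clock* and the highest *Per2* of its genotype. Phf21bΔ4/Δ4 replicate 3 had the highest *Per1*, *Cry2*, *Nr1d1*, *Nr1d2*, *Dbp*, and *Clock* of its genotype. Among Phf21b+/+ mice, replicate 7, the library with the most choroid plexus RNA, was lowest for 7 of the 10 genes and highest for *Arntl* and *Clock*. A link between that RNA and these values was not tested. One measure set genes driven by the activator pair, here called output genes, against *Arntl*. It was the mean log2 CPM of *Per1*, *Per2*, *Per3*, *Nr1d1*, *Nr1d2*, and *Dbp* minus the log2 CPM of *Arntl*. Its values were 0.18, -0.11, and -1.02 in Phf21bΔ4/Δ4 mice and -0.21, -0.56, and -0.19 in Phf21b+/+ mice. The Phf21b+/+ values lay within the range of the Phf21bΔ4/Δ4 values, with means of -0.32 ± 0.63 and -0.32 ± 0.21 (SD, n = 3 each). Phf21bΔ4/Δ4 replicate 6 was the lowest of the 6 mice on this measure, and the difference between genotypes, 0.0072 on the log2 scale with all mice, was 0.36 without it. The sign turned without Phf21bΔ4/Δ4 replicate 2 (-0.24), Phf21bΔ4/Δ4 replicate 3 (-0.098), or Phf21b+/+ replicate 7 (-0.11). The averaged genes went both ways between genotypes, so opposite differences partly cancel in their mean. Log2 fold changes were 0.63 for *Per1*, 0.54 for *Per2*, and 0.19 for *Nr1d1*, but -0.30 for *Per3*, -0.28 for *Nr1d2*, and -0.28 for *Dbp*.

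Within a family, ratios of CPM in the same library do not depend on how that library was scaled. All 5 pairs within the 3 families were compared by an exact permutation test, for which the smallest p with 3 against 3 mice is 0.1, and these pairs were set after the values were seen. The ratio of *Cry2* to *Cry1* was 9.11, 8.39, and 6.86 in Phf21bΔ4/Δ4 mice and 5.21, 4.65, and 4.79 in Phf21b+/+ mice, 1.65-fold apart without overlap (exact p = 0.1, and 0.17 after adjustment over the 5 pairs). Since *Cry2* lay higher and *Cry1* lower, each without overlap, this ratio had to separate. Its exact p was thus fixed at the smallest value and adds nothing to the result of each gene. The adjustment does not cover the choice of pairs. The ratio of *Per1* to *Per3* was 1.43, 1.66, and 0.918 against 0.653, 0.628, and 0.774, also without overlap. *Per2* to *Per3* gave 1.296, 1.10, and 0.862 against 0.571, 0.574, and 0.666. For these 2 pairs the exact p was again 0.1, and the ratios were 1.90-fold and 1.78-fold apart. The CPM ranges of the single genes already forced these 2 ratios apart as well. Their exact p thus also adds nothing to the result of each gene. *Per1* to *Per2* stayed between 1.07 and 1.51 in Phf21bΔ4/Δ4 mice and between 1.09 and 1.16 in Phf21b+/+ mice (exact p = 0.9), and *Nr1d1* to *Nr1d2* overlapped through Phf21bΔ4/Δ4 replicate 6 (exact p = 0.2).

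**Figure D4:**
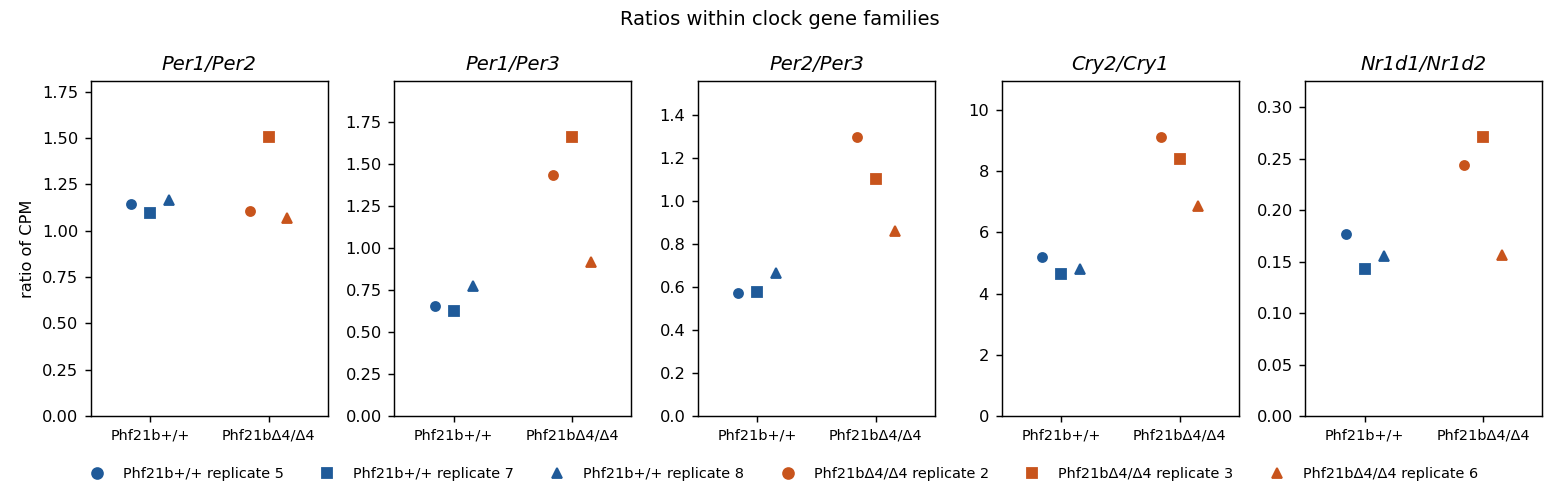
Ratio of the CPM values of paired family members within each mouse, with a linear axis from 0 in every panel. In *Per1*/*Per3*, *Per2*/*Per3*, and *Cry2*/*Cry1* the 3 Phf21bΔ4/Δ4 mice lie above the 3 Phf21b+/+ mice, and replicate 6 is the lowest of the Phf21bΔ4/Δ4 mice in each.

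Per length of annotated exon, the levels of the 10 genes could be set in order. In Phf21b+/+ mice, mean CPM per kilobase ran from 3.04 for *Per2* through 3.07 for *Per3*, 3.60 for *Per1*, 5.33 for *Arntl*, 5.93 for *Cry1*, 6.43 for *Nr1d1*, 12.4 for *Clock*, 14.2 for *Dbp*, and 15.3 for *Cry2* to 23.0 for *Nr1d2*. The 3 *Per* genes overlapped in this order, as did *Cry1* with *Nr1d1* and *Dbp* with *Cry2*, while the other neighbours did not overlap among the 3 mice. In Phf21bΔ4/Δ4 mice *Per3* (2.49) was lowest and lay apart from the next gene, *Cry1* (4.27), which overlapped with *Per2* (4.39). *Per2* overlapped with *Per1* (5.62), *Per1* with *Arntl* (5.84), and *Arntl* with *Nr1d1* (7.61). Above these came *Dbp* (11.7), *Clock* (12.8), *Cry2* (18.1), and *Nr1d2* (19.0), of which *Dbp* overlapped with *Clock* and *Cry2* with *Nr1d2*.

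The promoters of *Per1*, *Cry1*, and *Per3* are shown because they were the members whose RefSeq windows (250 bases before to 50 after a start site, GRCm38.p6) held an E-box or a D-box letter for letter, and because *Per1* and *Cry1* had the most positive and the most negative log2 fold change. For 9 of the 10 members, all but *Per2*, 13 windows were found, and a member was counted if any of its windows held the sequence searched. *Per1* had another window besides the one shown, in which none of the searched sequences was found. Each sequence is the coding strand, 5′ to 3′, cut before the first annotated exon base, and capitals mark the E-box CACGTG, the D-box TTATGNAA, and AGGTCA, the core bound by nuclear receptors such as the REV-ERB proteins, which reads TGACCT on the other strand.
*Per1*, chr11:69098699-69098947, plus strand: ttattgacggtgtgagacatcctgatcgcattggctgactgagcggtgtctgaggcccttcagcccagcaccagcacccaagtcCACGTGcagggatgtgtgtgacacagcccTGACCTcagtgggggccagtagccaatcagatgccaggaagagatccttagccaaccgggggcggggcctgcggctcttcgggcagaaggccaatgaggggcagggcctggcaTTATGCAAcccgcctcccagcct
*Cry1*, chr10:85185065-85185304, minus strand: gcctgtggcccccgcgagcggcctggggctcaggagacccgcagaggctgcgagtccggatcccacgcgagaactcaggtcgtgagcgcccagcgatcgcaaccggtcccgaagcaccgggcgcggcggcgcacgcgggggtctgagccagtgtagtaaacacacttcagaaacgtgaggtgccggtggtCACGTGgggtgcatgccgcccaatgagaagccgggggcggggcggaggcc
*Per3*, chr4:151044666-151044915, minus strand: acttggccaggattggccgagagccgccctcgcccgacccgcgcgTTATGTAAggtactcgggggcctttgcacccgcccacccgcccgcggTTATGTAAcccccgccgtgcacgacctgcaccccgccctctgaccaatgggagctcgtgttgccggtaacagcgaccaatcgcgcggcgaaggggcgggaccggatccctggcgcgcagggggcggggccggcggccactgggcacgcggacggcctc
Searched on both strands, CACGTG was in the windows of 2 members (*Per1*, with its first base 166 bases before the start site, and *Cry1*, at 60 bases) and in 7.15% of all 32851 windows. TTATGNAA was in those of *Per1* and *Per3*, which holds it at 205 and 158 bases before its start site, and in 3.38% of all windows. AGGTCA was in windows of *Arntl*, *Clock*, *Nr1d2*, and *Per1* and in 16.3% of all windows. The cAMP response element TGACGTCA was in no member's window and in 1.79% of all windows. *Per1* and *Cry1* thus share an E-box in this stretch while their levels lay on opposite sides of the Phf21b+/+ mice, and a match of letters is no measure of binding.

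Of 23 other genes of the clock pathway, none was past both thresholds, and 7 had an unadjusted p under 0.05, against 23.6% of all genes. In 8 of the 23 (34.8%) the genotypes did not overlap, 4 on each side, a share near the 31.0% of all genes. *Rora* and *Rorb*, which encode nuclear receptors that activate *Arntl*, overlapped between genotypes (58.2 to 116 CPM against 72.5 to 166 CPM for *Rora*, and 32.1 to 58.4 CPM against 42.8 to 55.0 CPM for *Rorb*). *Rora* is also strongly expressed in the thalamus, whose markers were lower in Phf21bΔ4/Δ4 mice, and the part of thalamic RNA in its values was not tested.

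Among kinases of the loop, *Gsk3b*, whose product phosphorylates several clock proteins, had 229, 277, and 174 CPM in Phf21bΔ4/Δ4 mice and 162, 139, and 170.0 CPM in Phf21b+/+ mice (log2 fold change 0.51, FDR 0.17, limma). *Csnk1d*, which encodes the casein kinase that marks PER proteins for degradation, had 144, 136, and 141 CPM against 128, 113, and 122 CPM (log2 fold change 0.22, FDR 0.17, limma). *Btrc*, a subunit of the ubiquitin ligase that takes up the marked PER proteins, had 94.9, 105, and 90.1 CPM against 84.7, 82.6, and 85.1 CPM (log2 fold change 0.20, FDR 0.20, limma). All 3 genes lay higher in every Phf21bΔ4/Δ4 mouse without passing the FDR threshold. *Bhlhe41*, a repressor at E-boxes, lay lower (18.8 to 23.3 CPM against 25.3 to 28.5 CPM, log2 fold change -0.29, FDR 0.19, limma). *Bhlhe40*, another repressor at E-boxes, pointed the other way with overlap (75.9 to 83.2 CPM against 58.2 to 76.5 CPM, log2 fold change 0.33, FDR 0.18, limma). *Tipin*, the partner of TIMELESS, lay lower (12.9 to 17.2 CPM against 17.3 to 20.0 CPM, log2 fold change -0.33, FDR 0.20, limma).

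Genes that respond to the same inputs as *Per1* were also counted. Of 15 immediate early genes, which CREB and neuronal activity induce, 1 was past the thresholds. It was *Nr4a1*, with 24.2, 23.4, and 25.3 CPM in Phf21bΔ4/Δ4 mice and 13.9, 15.1, and 14.2 CPM in Phf21b+/+ mice (log2 fold change 0.76, FDR 0.046, limma). The summed level of the 15 genes was 441 to 468 CPM in Phf21bΔ4/Δ4 and 371 to 384 CPM in Phf21b+/+ mice, and their median log2 fold change was 0.29. Of the 15, 2 had an unadjusted p under 0.05 (23.6% of all genes did). In 3 of the 15 (20%) the genotypes did not overlap, as was so in 31.0% of all genes. Of 11 glucocorticoid-responsive genes, none was past the thresholds, 2 had an unadjusted p under 0.05 (23.6% of all genes did), and the summed levels overlapped (333 to 409 CPM against 352 to 398 CPM). *Zbtb16* had the smallest p of these, with 55.7 to 69.5 CPM against 30.1 to 44.4 CPM (log2 fold change 0.71, FDR 0.13, limma). The other of the 2, *Arrdc2*, lay lower in every Phf21bΔ4/Δ4 mouse, with 6.05 to 6.79 CPM against 7.59 to 8.36 CPM (log2 fold change -0.31, FDR 0.20, limma). Markers of astrocytes, oligodendrocytes, microglia, and endothelial cells, which all run a clock of their own, were past the thresholds for 1 of 8, 0 of 8, 0 of 6, and 0 of 6 genes, and the median log2 fold change was 0.43 for the endothelial list and between -0.17 and 0.08 for the others. All 6 endothelial genes had a log2 fold change above 0. Of these 6, 4 had an unadjusted p under 0.05 by limma (23.6% of all genes did), and in 4 the genotypes did not overlap (31.0% of all genes).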

How the data were processed

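Hippocampal total RNA of 6 mice was sequenced as single-end reads after ribosomal RNA removal. The authors trimmed reads with Trimmomatic 0.39, mapped them to GRCm38 with STAR 2.7.3a, summarized them over GENCODE genes with featureCounts (Subread 1.6.4), kept genes that reached a CPM of 1 in 2 or more samples, and used edgeR to scale to effective library size. What they deposited is log2 CPM with a small prior count that the sources used here do not name. Low values rose in steps of 1 read, and 100.0% of the values were whole reads within 0.1, which gave depth, CPM, and reads.

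The genotypes were compared on all 14477 genes with limma 3.58.1 in R 4.3.3 (lmFit, then eBayes with trend), without covariates, and called at FDR under 0.1 and more than 1.3-fold. The authors tested with edgeR, a test of counts. Tests were 2-sided. Replicates are separate mice. The method was tested on simulated reads, which had the same setting for variability in every gene and mouse. That test does not cover the dependence of the calls on Phf21bΔ4/Δ4 replicate 6. Exon lengths and positions come from GENCODE M21 (GRCm38).

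Alternatives were other pseudocounts (1 and 0.1), a filter at a mean log2 CPM of 1, quantile normalization, median centring, eBayes without trend, robust empirical Bayes, arrayWeights, no fold threshold, an FDR under 0.05, voom on the recovered reads, and leaving out each mouse. Counts of non-overlapping members, the output-activator difference, and family ratios under some of these were chosen after seeing the data. Members and lists were chosen with earlier results of these data known. Named genes are the members, *Phf21b*, genes overlapping a member, pathway genes without overlap at an unadjusted p under 0.05 (at most 15), the 5 genes most like the mean output profile, and at most 4 per other list, beside markers that were not listed. Of the 23 other pathway genes, 1 is not reported here by name or in a figure. *Rora*, *Rorb*, and *Bhlhe40*, and *Npas2* in the closing section, were named after their values were seen.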

Additional observations from a re-analysis of the deposited data

How the results depend on the processing

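No paired analysis was made, because the litter of each mouse is not given in the sources used here. Over 15 refits, 7 of the 10 clock genes kept their direction in every refit, and 4 (*Per1*, *Per2*, *Per3*, and *Cry1*) were past both thresholds in at least 1. With arrayWeights, which gave Phf21bΔ4/Δ4 replicate 6 the lowest weight, 4 clock genes, 6 other pathway genes, and 3549 genes in all were called. With each mouse left out these numbers ranged from 0 to 3, from 0 to 5, and from 9 to 2830, the highest each time without Phf21bΔ4/Δ4 replicate 6, and the lowest number over all genes without Phf21b+/+ replicate 8. The number over all genes was 101 with the filter on low values, 75 with eBayes without trend, 25 at an FDR under 0.05, and 131 with voom, which called 0 clock genes and had 6 at an unadjusted p under 0.05. Directions turned for *Arntl* (-0.16 with arrayWeights, from -0.18 without Phf21bΔ4/Δ4 replicate 6 to 0.33 without replicate 2), *Nr1d1* (from -0.054 without Phf21bΔ4/Δ4 replicate 3 to 0.49 without replicate 6), *Clock* (-0.090 with quantile normalization), the difference of the output genes from *Arntl* (from -0.24 without Phf21bΔ4/Δ4 replicate 2 to 0.36 without replicate 6), and the log2 ratio of *Per1* to *Per2* (from -0.062 without Phf21bΔ4/Δ4 replicate 3 to 0.19 without replicate 6). Non-overlapping clock genes numbered 7 with quantile normalization (27.8% of all genes), 6 with centring (30.8%, without *Dbp* and with *Clock*), and between 6 and 8 with a mouse left out (36.9% to 55.3% of all genes). The cause of these changes was not tested. With 3 mice per genotype, intervals of the log2 fold change of *Nr1d1* and *Arntl* span more than 1.3-fold in both directions.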

Other observations

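*Npas2*, which encodes a brain paralog of CLOCK, had 19.9, 38.3, and 13.7 CPM in Phf21bΔ4/Δ4 replicates 2, 3, and 6 and 13.5, 12.4, and 13.7 CPM in Phf21b+/+ replicates 5, 7, and 8. The PAR bZIP gene *Hlf*, of the same family as *Dbp*, had 68.0, 159, and 56.6 CPM against 103, 68.7, and 79.0 CPM, so that Phf21bΔ4/Δ4 replicate 3 was highest of the 6 mice for both genes. *Hlf* was named after its values were seen.

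Among the 12956 genes past the filter on low values, the 5 whose profile over the 6 mice was most like the mean standardized profile of *Per1*, *Per2*, *Per3*, *Nr1d1*, *Nr1d2*, and *Dbp* were *Med12l*, *Plekho2*, *Mta3*, *Cep85l*, and *Myh7b*, with Pearson's r between 0.960 and 0.981. The 6 genes themselves had r between 0.21 and 0.77 with that profile, and all points share the same 6 libraries. As the 5 were the highest of 12956 genes ranked over only 6 libraries, r this high can arise from the ranking alone. No test was made of this likeness.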
